A study of Drosophila melanogaster with 8 samples.

Results

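The genes described here encode the structural proteins of the insect cuticle, measured in adult fly heads after HEXIM knockdown in the eye. They were taken as every probe set on the array that the annotation ties to a single gene whose symbol starts with Cpr, Twdl, Lcp or Ccp followed by a digit or a capital letter. Where a gene had more than 1 probe set, the one with the highest mean over the 8 arrays was used. The rule gave 98 genes, read by 100 probe sets, out of 11982 genes that had a probe set with a single symbol. They were 66 Cpr, 22 Twdl, 7 Lcp and 3 Ccp genes. The RefSeq gene table of the current fly assembly holds 118 genes whose symbols meet the same rule. A further 6 probe sets name several genes at once, among them Ccp84Aa with Ccp84Ab and Lcp65Ag1 with Lcp65Ag2, and they were not counted, since their signal cannot be split between near copies or overlapping genes.

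RNA came from whole heads of adult Drosophila melanogaster, 4 samples being wild type (WT) flies of strain W118 and 4 being flies in which the GMR-Gal4 driver expressed the UAS-Hexim-RNAi hairpin (HEXIM knockdown). Both genotypes were reared at 29°C according to the labels, and age beyond adult was not given. GMR-Gal4 is active in the differentiating cells of the eye, while the cuticle of a head is also made by the epidermis of the head capsule, antennae and mouthparts, by tracheae and by the foregut. The WT flies carried neither the driver nor the hairpin, so that knockdown, transgenes and strain background cannot be told apart, and in whole heads fewer cells of a type and less RNA per cell cannot be told apart.

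Cuticle is secreted by epithelial cells and consists of chitin fibres bound by proteins, later hardened and darkened by tanning. Most Cpr, Lcp and Ccp proteins carry the Rebers-Riddiford motif, through which they bind chitin, whereas the Tweedle (Twdl) proteins form a separate family that was named after the squat body shape of mutant flies. The Lcp genes were first found as larval cuticle proteins, and the Ccp genes lie within the Antennapedia complex of homeotic genes. In the eye, cone cells and primary pigment cells secrete the corneal lens, a specialised cuticle that contains Cpr66D, Cpr72Ec, retinin and drosocrystallin. Many of these genes stand in tandem clusters, and the number with a letter in most Cpr symbols, or in Lcp65A and Ccp84A, gives the region of the polytene chromosome where the gene lies.

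Each Affymetrix Drosophila_2 array gives 1 log2 level for a probe set, from short probes near the 3' end of the transcript. The brightness of a probe set depends on its probes as well as on its transcript, so genotypes are compared within each gene. Where genes are split, ordered or called dim or bright by level, this describes the signal of their probe sets and does not rank amounts of transcript. Array medians lay between 5.43 and 5.57, and no 2 arrays correlated below 0.974. WT arrays 1 and 3 and HEXIM knockdown array 4 lay away from the others along the leading principal component (51.3% of variance) and had the 3 lowest middle minus 3' values of the GAPDH control (-2.06, -2.12 and -2.17, against -1.18 to -1.38 in the other 5 arrays), a control ratio for RNA quality. Hexim itself stood at 8.14, 7.85, 7.96 and 7.79 in WT arrays 1 to 4, against 7.60, 7.54, 7.52 and 7.77 in HEXIM knockdown arrays 1 to 4. The genotypes did not overlap for Hexim, and its log2 fold change was -0.33 (SE 0.10, limma adjusted p = 0.418). Whether its probes overlap the hairpin was not checked. If they do, the value includes hairpin RNA and is no clean measure of the knockdown.

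No cuticle protein gene differed between the genotypes past the test, and the genes whose arrays separated by genotype were mostly lower after knockdown. At an adjusted p under 0.05 from limma, 0 of 98 genes were called, where 0.256% of all 18769 probe sets were. At an unadjusted p under 0.05 there were 15, 3 higher and 12 lower after knockdown, against 7.24% of all probe sets (2.84% higher and 4.4% lower). With array weights, the one other fit that called any, limma called 7 genes (Cpr49Af, Cpr62Ba, Cpr62Bb, Cpr62Bc, Cpr92F and Lcp65Ac as lower and TwdlE as higher), where it called 2.7% of all probe sets and gave HEXIM knockdown array 2 a weight of 9.03. All 4 arrays of one genotype lay on one side of all 4 of the other for 11 cuticle genes (11.2%), 2 higher and 9 lower after knockdown, against 5.35% of all probe sets (1.99% higher and 3.37% lower). Such separation by itself fixes the exact two-sided permutation p at 0.0286, the smallest that 4 arrays against 4 can give. Without HEXIM knockdown array 1 this held for 22 genes, 7 higher and 15 lower, against 8.39% of all probe sets, and without the 3 arrays that stood apart for 29 genes, against 26.6%.

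Levels split the genes as follows, as a description only. Of the 98 genes, 35 (35.7%) had a mean level above 5.49, the median of all probe sets. Of these 35, 25 (71.4%) had a log2 fold change below 0, against 55.8% of all probe sets above that level. Their median log2 fold change was -0.26, against -0.02. The WT arrays where these 35 genes stood highest relative to their own means were 1 and 3, with median deviations of 0.19 and 0.16. Both are among the 3 arrays that stood apart, and the values for the 35 genes are not given without those arrays. The genotypes were apart for 8 of the 35 (22.9%), all 8 lower after knockdown, where 7.86% of all probe sets above that level were apart and 5.36% were apart and lower. The level was the mean over both genotypes, so a change can itself decide on which side a gene falls: Cpr62Ba, 1 of the 8, lay above the median in WT only, and Cpr47Ea, which was not apart, after knockdown only. The other 63 genes had a median of -0.02. The genotypes were apart for 3 of them (4.76%: Cpr47Eb, Cpr78Cc and Lcp65Ad), against 5.35% of all probe sets at any level. The share among only the probe sets below that level is not given here, so the 2 parts are not compared. Over all 98 genes the median was -0.05, with 60 below 0 (61.2%, against 55.4% of all probe sets).

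**Figure D1:**
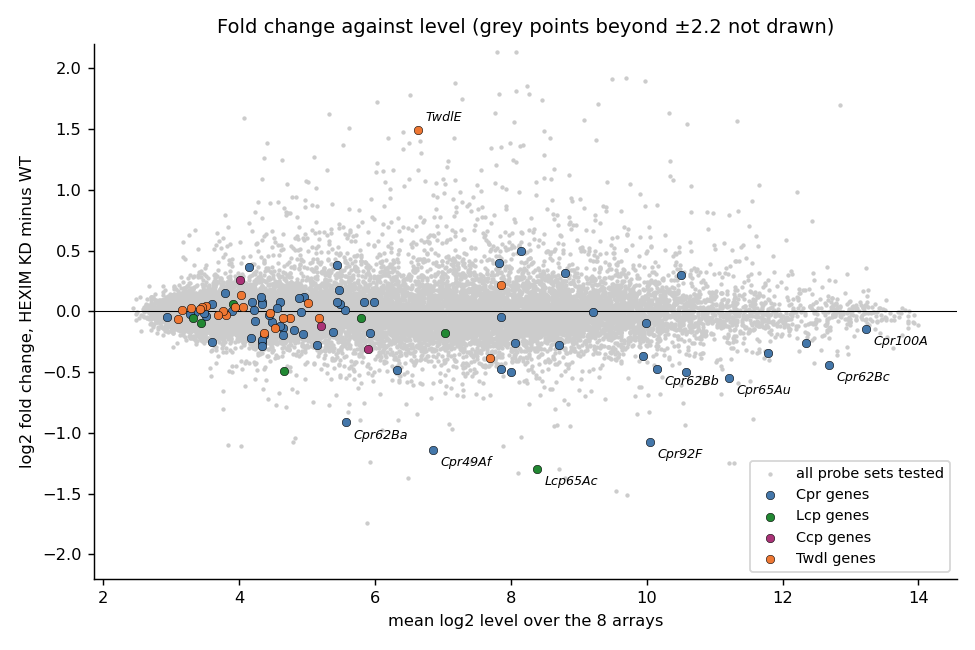
Log2 fold change, HEXIM knockdown minus WT, against the mean log2 level over the 8 arrays, with each of the 98 cuticle genes as a coloured point by family and the 18769 probe sets tested in grey, except those beyond the axis. The genes of lowest fold change are Lcp65Ac, Cpr49Af, Cpr92F and Cpr62Ba, and TwdlE stands alone among the members above 1.

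The 3 genes at band 62B, which are neighbours on chromosome arm 3L, all stood lower in every HEXIM knockdown array than in any WT array. All 3 encode proteins of the chitin-binding Cpr family. Cpr62Ba stood at 5.65, 6.26, 5.93 and 6.28 in WT and at 5.28, 5.17, 5.12 and 4.89 after knockdown. Its HEXIM knockdown arrays lay below the median of all probe sets and its WT arrays above it, with a gap of 0.37 between the nearest arrays. The log2 fold change was -0.91 (SE 0.16), 53.1% of the WT level, and its adjusted p of 0.0932 from limma was the lowest of all 98 genes.

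Cpr62Bb stood at 10.48, 10.31, 10.41 and 10.36 in WT and at 9.72, 9.95, 10.11 and 9.87 after knockdown. The WT arrays spanned less than the gap of 0.20 to the highest knockdown array, and the knockdown level was 72.0% of WT (log2 fold change -0.47, SE 0.10, limma adjusted p = 0.158). Cpr62Bc stood at 12.95, 12.76, 12.97 and 12.96 in WT and at 12.36, 12.49, 12.49 and 12.53 after knockdown. WT array 2 was the lowest of its group and still lay 0.23 above every knockdown array, and the log2 fold change was -0.44 (SE 0.08, limma adjusted p = 0.109). Without any 1 array, Cpr62Ba lay between -1.04 and -0.83, Cpr62Bb between -0.54 and -0.41 and Cpr62Bc between -0.49 and -0.41. Without the 3 arrays that stood apart, Cpr62Ba lay at -1.08, Cpr62Bb at -0.41 and Cpr62Bc at -0.41, with limma adjusted p of 0.0531, 0.475 and 0.391.

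**Figure D2:**
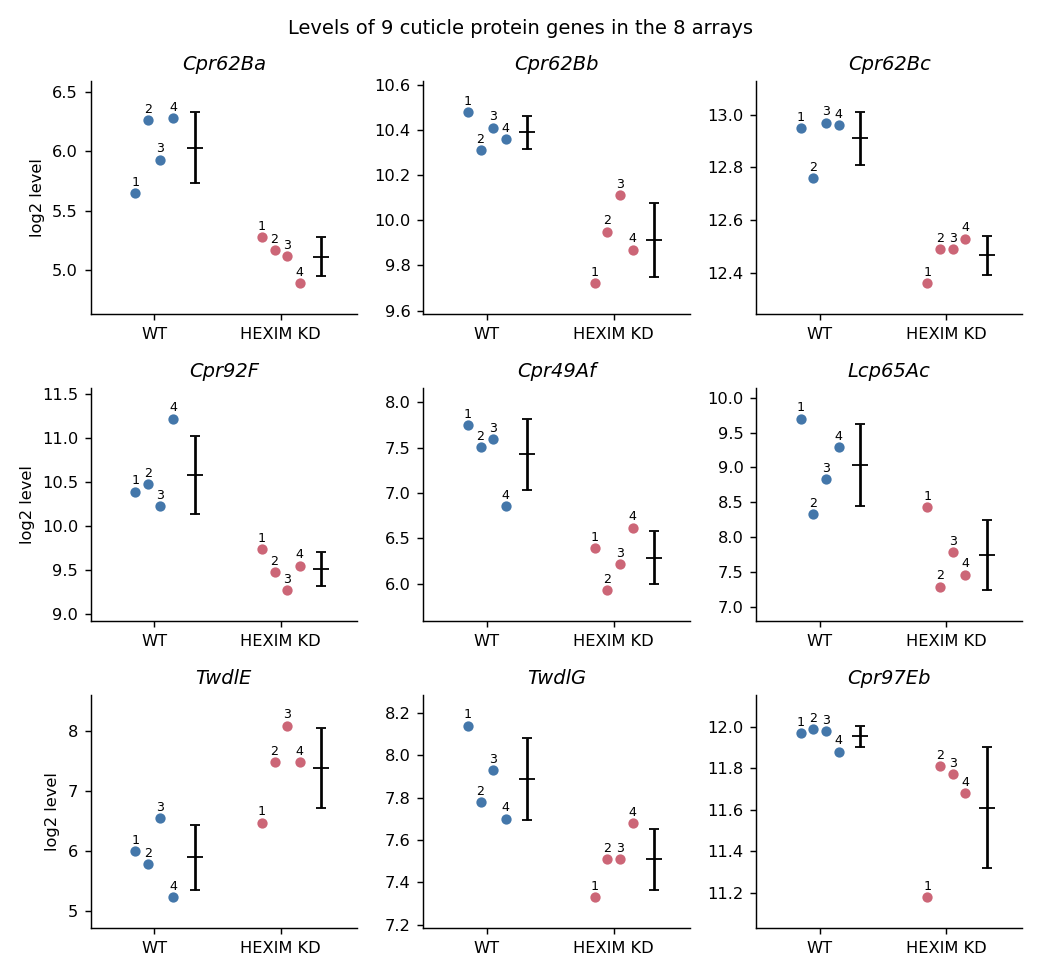
Log2 level of 9 cuticle genes in each array, with points numbered by replicate and bars giving the mean ± SD of 4 arrays on an axis of its own for each gene. The genotypes do not overlap for Cpr62Ba, Cpr62Bb, Cpr62Bc, Cpr92F, Cpr49Af, TwdlG and Cpr97Eb, and 1 array crosses over for Lcp65Ac and TwdlE.

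Outside band 62B, the Cpr genes with the largest separations were Cpr92F and Cpr49Af, each at under 50% of its WT level. Cpr92F on arm 3R stood at 10.39, 10.48, 10.23 and 11.22 in WT and at 9.74, 9.48, 9.27 and 9.55 after knockdown. WT array 4 lay above its group, and the gap between the genotypes, 0.50, was the widest of the 11. The log2 fold change was -1.07 (SE 0.21, limma adjusted p = 0.148), or 47.5% of WT. Cpr49Af on arm 2R stood at 7.75, 7.51, 7.59 and 6.86 in WT and at 6.39, 5.93, 6.22 and 6.62 after knockdown. WT array 4 was the low one here, and the knockdown level was 45.4% of WT (log2 fold change -1.14, SE 0.21, limma adjusted p = 0.130). When any 1 array was dropped, Cpr92F lay at -1.19 to -0.86 and Cpr49Af at -1.33 to -1.02. With the genotypes apart, dropping an array could change only the size of these values and not their direction.

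Cpr97Ea and Cpr97Eb, adjacent on arm 3R, both had lower means after knockdown. Cpr97Eb stood at 11.97, 11.99, 11.98 and 11.88 in WT and at 11.18, 11.81, 11.77 and 11.68 after knockdown. Its genotypes were apart, but HEXIM knockdown array 1 lay far below the others of its group, and the log2 fold change of -0.35 (SE 0.14, limma adjusted p = 0.620) became -0.20 without that array. Cpr97Ea stood at 11.11, 10.52, 11.10 and 10.57 in WT and at 9.88, 10.42, 10.46 and 10.54 after knockdown. WT array 2 lay just below HEXIM knockdown array 4, so that the groups overlapped by 1 array (log2 fold change -0.50, SE 0.20, limma adjusted p = 0.603). Cpr47Eb, also with groups apart and a lower level, gave a dim signal, with 3.60 to 3.88 in WT and 3.44 to 3.55 after knockdown (log2 fold change -0.25).

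Other Cpr genes lay lower by about as much with overlapping arrays. Cpr47Ef averaged 8.25 in WT and 7.76 after knockdown (log2 fold change -0.50, SE 0.20), and its second, dim probe set gave 0.12. In the cluster at band 76B, Cpr76Bd lay at -0.47 (SE 0.24) and Cpr76Bc at -0.48 (SE 0.27), while the dimmer Cpr76Ba and Cpr76Bb lay at 0.08 and -0.28. For Cpr76Bc and Cpr76Bd the lowest of all 8 arrays was HEXIM knockdown array 4, 1 of the 3 arrays that stood apart.

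The cluster at band 65A on arm 3L held 10 of the genes, 6 Lcp and 4 Cpr, of which 4 lay above the median level of all probe sets. Of the 10, 9 had a log2 fold change below 0, against 55.4% of all probe sets, most of them small. Lcp65Ac had the lowest log2 fold change of all 98 genes. It stood at 9.70, 8.33, 8.83 and 9.29 in WT and at 8.43, 7.29, 7.78 and 7.46 after knockdown. HEXIM knockdown array 1 lay between the WT arrays and the rest of its group lay below all of them, giving 40.7% of the WT level (log2 fold change -1.30, SE 0.33, limma adjusted p = 0.279).

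Cpr65Au stood at 11.58, 11.40, 11.21 and 11.77 in WT and at 12.02, 10.82, 10.59 and 10.34 after knockdown. HEXIM knockdown array 1 was the highest of all 8 arrays and the other 3 the lowest. The log2 fold change of -0.54 (SE 0.33, limma adjusted p = 0.909) became -0.90 without that array (adjusted p = 0.129) and -0.34 without HEXIM knockdown array 4 (adjusted p = 0.682). The other 8 genes of the cluster lay between -0.18 and 0.06, among them Lcp65Aa at -0.18 (SE 0.12), whose second probe set gave -0.01. Lcp65Ad was apart and higher after knockdown, but by only 0.06, from 3.84 to 3.90 in WT to 3.92 to 3.95, at a dim level where the whole spread of the arrays was about as small. Lcp9 of arm 2R lay at -0.49 (SE 0.23) with overlapping arrays, and the 3 Ccp genes lay at -0.31 (Ccp84Ac), -0.12 (Ccp84Ae) and 0.26 (Ccp84Ag), also overlapping.

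The 8 genes at band 49A on arm 2R did not share a direction. Beside Cpr49Af at -1.14, Cpr49Ae lay at -0.26 (SE 0.16), Cpr49Ag at 0.30 (SE 0.25) and Cpr49Ac at 0.39 (SE 0.49). Cpr49Ag stood at 10.27, 10.30, 10.51 and 10.32 in WT and at 9.83, 10.98, 11.06 and 10.72 after knockdown. HEXIM knockdown array 1 was the lowest of all 8 arrays and the other 3 were the highest. Cpr49Ac stood at 6.59 in HEXIM knockdown array 1 and at 8.06 to 8.88 in the other 3, against 6.96 to 8.14 in WT, so that array 1 was the lowest of all 8 and the other 3 overlapped with WT. Both values hung on single arrays: Cpr49Ag lay at 0.57 without HEXIM knockdown array 1, 0.18 without array 2 and 0.16 without array 3 of that group, and Cpr49Ac at 0.87 without HEXIM knockdown array 1, 0.21 without array 3, 0.11 without array 4 and 0.17 without WT array 4. The 4 dimmer genes of the cluster lay between -0.28 and -0.03.

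**Figure D3:**
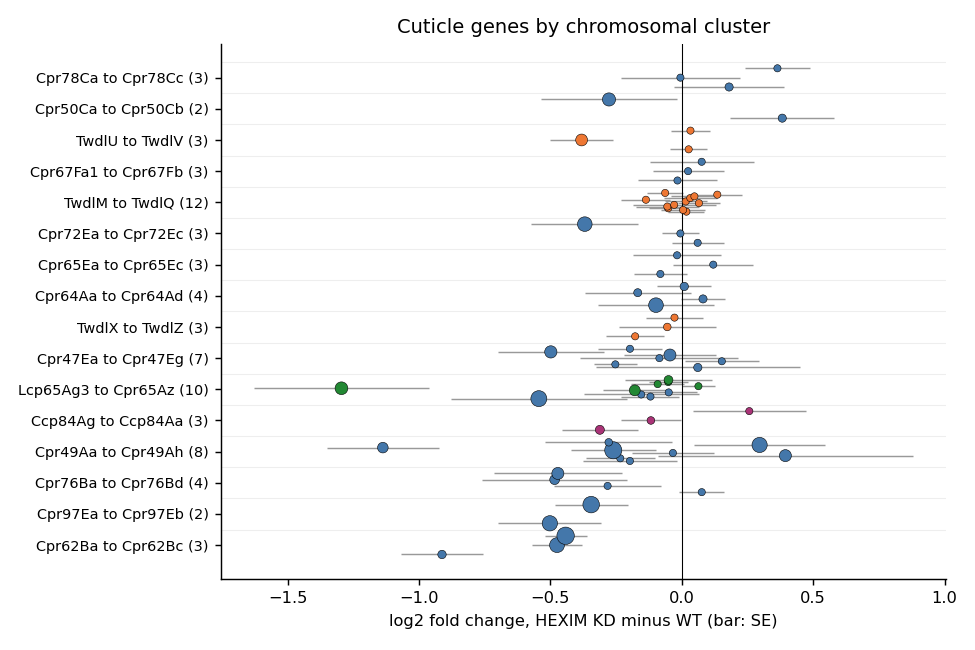
Log2 fold change, HEXIM knockdown minus WT, with its SE, for the 73 cuticle genes that stand in 16 clusters on the chromosomes (named by their first and last RefSeq genes, measured or not, with the number of measured genes in brackets), coloured blue for Cpr, green for Lcp, purple for Ccp and orange for Twdl, with larger points for higher mean levels. All 3 genes of band 62B lie below 0, band 49A reaches from -1.14 to 0.39, and the 12 Tweedle genes from TwdlM to TwdlQ lie between -0.14 and 0.14.

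Among the 22 Tweedle genes, TwdlE had a higher and TwdlG a lower mean after knockdown, and most of the others were dim and near 0. TwdlE on arm 2L stood at 6.0, 5.78, 6.55 and 5.23 in WT and at 6.47, 7.48, 8.09 and 7.48 after knockdown. WT array 3 and HEXIM knockdown array 1 crossed over by 0.08, and the remaining arrays separated by genotype. The knockdown level was 281% of WT (log2 fold change 1.49, SE 0.37, limma adjusted p = 0.263), the highest log2 fold change of all 98 genes. It ranged from 1.26 to 1.79 when any 1 array was left out, with limma adjusted p of 0.106 to 0.605.

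TwdlG on arm 3R stood at 8.14, 7.78, 7.93 and 7.70 in WT and at 7.33, 7.51, 7.51 and 7.68 after knockdown. The groups were apart by 0.02 only, and the log2 fold change was -0.38 (SE 0.12, limma adjusted p = 0.427). TwdlT, the only other Tweedle gene above the median level of all probe sets, averaged 7.74 in WT and 7.96 after knockdown with overlapping arrays (log2 fold change 0.22). The largest cluster, 12 genes from TwdlM to TwdlQ on arm 3R that include TwdlD, the gene of the squat mutant, was dim throughout, with mean levels of 3.10 to 5.01 and log2 fold changes of -0.14 to 0.14. Over the 22 genes the median was 0.01, with 12 above 0 and 10 below.

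Of the 66 Cpr genes, 24 had a log2 fold change above 0, the highest being that of Cpr51A. It stood at 8.20, 7.51, 8.10 and 7.78 in WT and at 8.12, 8.28, 8.33 and 8.86 after knockdown. The groups overlapped through HEXIM knockdown array 1 (log2 fold change 0.50, SE 0.20, limma adjusted p = 0.619). Cpr78Cc, which was dim, stood at 4.04, 3.91, 4.00 and 3.91 in WT and at 4.07, 4.32, 4.66 and 4.26 after knockdown, apart by 0.04 (log2 fold change 0.36, SE 0.12, limma adjusted p = 0.491). Cpr50Ca stood at 4.93 to 5.49 in WT and at 5.06, 5.89, 5.77 and 5.82 after knockdown. HEXIM knockdown array 1 was again the exception, and the log2 fold change of 0.38 (SE 0.20) became 0.57 without it.

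The corneal lens was represented by 2 of the 98 genes, and both had lower means after knockdown. Cpr66D stood at 5.94, 6.03, 6.15 and 5.97 in WT and at 5.76, 5.81, 5.92 and 5.88 after knockdown. The groups were apart by 0.02, and Cpr66D averaged -0.18 on the log2 scale relative to WT (SE 0.08, limma adjusted p = 0.688). Cpr72Ec stood at 10.27, 10.49, 10.21 and 9.53 in WT and at 9.72, 9.75, 10.02 and 9.53 after knockdown. WT array 4 was as low as the lowest knockdown array, and the log2 fold change was -0.37 (SE 0.20, limma adjusted p = 0.846). Retinin, which is no member of the 4 families, averaged 13.95 in WT and 13.93 after knockdown (log2 fold change -0.03, SE 0.08). Drosocrystallin (Crys) had no named probe set here.

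Cpr100A and Cpr49Ae, whose probe sets were among the brightest of the array, had overlapping groups. Cpr100A averaged 13.31 ± 0.10 in WT and 13.16 ± 0.24 after knockdown (SD, n = 4), with HEXIM knockdown array 1 at 12.80 and the other 3 at 13.22 to 13.34. Its log2 fold change of -0.14 became -0.02 without that array. Cpr49Ae stood at 11.70 in HEXIM knockdown array 1 and at 12.29 to 12.43 in the other 3, against 12.37 to 12.57 in WT, and lay at -0.09 without array 1.

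Single arrays differed in how these genes stood. Of the 35 genes above the median level, 16 (45.7%) had their lowest knockdown value in HEXIM knockdown array 1, against 30.6% of all probe sets above that level, and 10 (28.6%, against 27.8%) had their highest there. In WT, 14 of the 35 (40.0%, against 18.6%) had their lowest value in array 2. The median deviation of the 35 genes from their own means was 0.19, 0.05, 0.16 and 0.04 in WT arrays 1 to 4 and -0.22, -0.05, -0.02 and -0.05 in HEXIM knockdown arrays 1 to 4. Over all probe sets above that level it was -0.02, 0.04, 0.00 and 0.04 in WT and -0.03, 0.01, 0.04 and -0.10 after knockdown. In WT arrays 2 and 4 the cuticle genes thus lay about where all such probe sets did, in HEXIM knockdown array 4 they lay closer to 0, and the widest distances from the other probe sets were in WT arrays 1 and 3 and HEXIM knockdown array 1. WT arrays 1 and 3 are 2 of the 3 arrays that stood apart and had the lowest values of the GAPDH control. The direction of each of the 22 genes named by rule was kept without HEXIM knockdown array 1, and in every other setting that gave it a value. For the 11 genes with groups apart, leaving out arrays cannot change the direction. Some of the others were named for their large fold changes in these same arrays. The kept direction is thus no separate support.

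**Figure D4:**
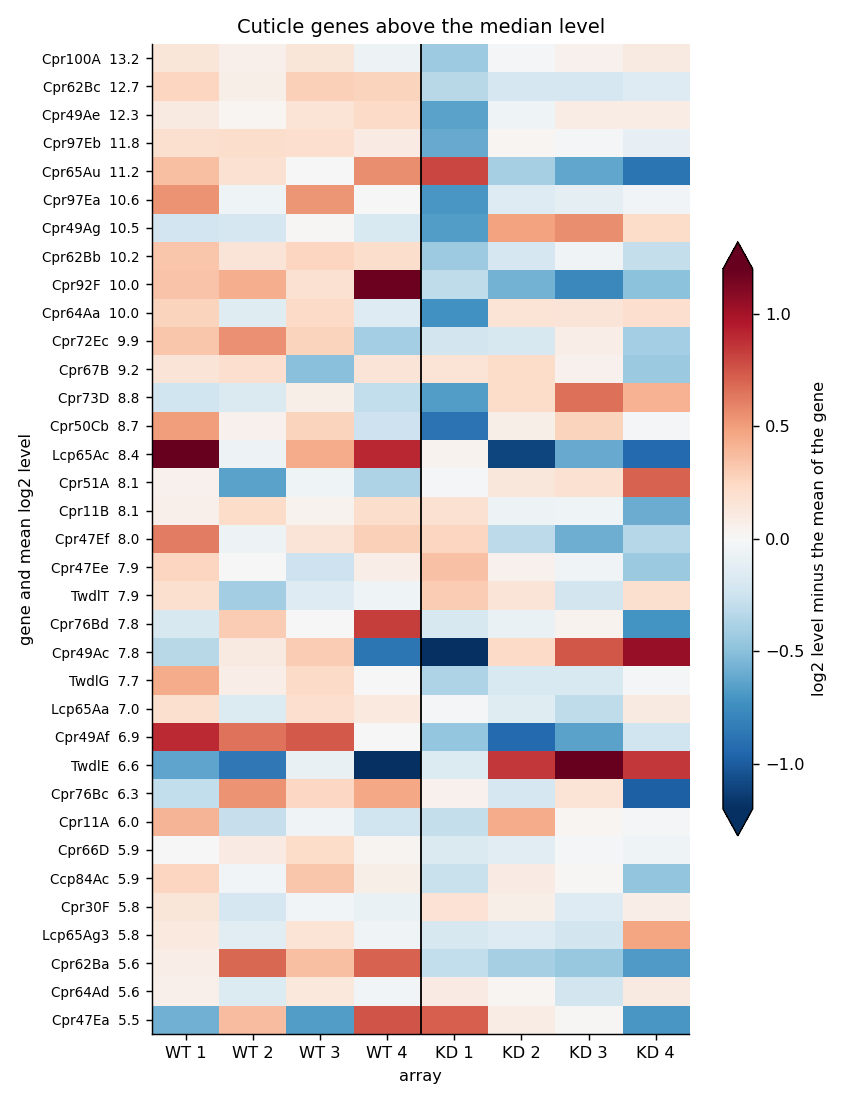
Log2 level in each of the 8 arrays minus the mean of the gene, for the 35 cuticle genes above the median level of all probe sets, ordered by mean level (the number beside each gene), with colours saturating at 1.2 above and below the mean. The column of HEXIM knockdown array 1 holds the lowest knockdown value for 16 of the 35 genes, and Cpr62Ba, Cpr62Bb, Cpr62Bc, Cpr92F and Cpr49Af are lower in all 4 knockdown arrays than in any WT array.

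Other genes of cuticle formation were read from 9 lists, holding 106 measured genes that are not among the 98. Each was read by its brightest probe set. Some have others whose values are not given here, among them br with 5 probe sets and grh, Gfat1 and Vajk2 with 2 each. Of these 106, 0 passed limma's test and 20 had an unadjusted p under 0.05, against 0.256% and 7.24% of all probe sets. With array weights limma called 3. Their median log2 fold change was -0.05, with 65 below 0 and 41 above, where 55.4% of all probe sets lay below 0. The groups were apart for 11, 2 higher and 9 lower, against 5.35% of all probe sets.

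The synthesis and deacetylation of chitin, the polysaccharide that the Cpr proteins bind, showed the lowest median of the 9 lists, -0.26, with 10 of 13 genes below 0 and 3 of them apart. Of the 13, 11 lay above the median level of all probe sets. Of all probe sets above that level, 55.8% lay below 0 and 7.86% were apart. Gfat1, the first enzyme of the pathway that makes the sugar precursor of chitin, stood at 10.74, 10.36, 10.56 and 10.43 in WT and at 9.95, 10.16, 10.23 and 10.18 after knockdown (log2 fold change -0.39, SE 0.11). The other genes apart were mmy, which makes the activated sugar (log2 fold change -0.26), and Cda4, a chitin deacetylase (log2 fold change -0.47, SE 0.15). The mean level of this list lay between 8.92 and 9.02 in WT, at 8.51 in HEXIM knockdown array 1 and at 8.73 to 8.95 in the other 3. The chitin synthase kkv lay at -0.37 with overlapping arrays (SE 0.27).

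Among the other structural proteins, 14 of 20 lay below 0 and 2 were apart, against 55.4% and 5.35% of all probe sets. Vajk2 stood at 12.71, 12.62, 12.76 and 12.81 in WT and at 12.39, 12.42, 12.47 and 12.36 after knockdown, and Vajk3 at 12.68, 12.65, 12.56 and 12.84 against 12.43, 12.25, 12.32 and 12.03. For both, the groups were apart, with log2 fold changes of -0.31 (SE 0.07) and -0.43 (SE 0.11) and adjusted p of 0.218 and 0.263 from limma. Of the chitinases and imaginal disc growth factors, 8 of 17 lay below 0 and 9 above, with a median of 0.05. Cht11 (-0.34) was apart and Cht7 (-0.44) overlapping. Cht12 (-0.07) was apart by only 0.0005, at a dim mean level of 3.37. All 6 growth factor genes lay above 0 with overlapping arrays, from 0.05 for Idgf4 to 0.87 for Idgf1 (SE 0.50).

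Genes that tan the cuticle did not share the direction. Ddc, which makes the dopamine used to cross-link cuticle, stood at 10.74, 10.84, 10.62 and 10.74 in WT and at 11.41, 11.07, 11.11 and 10.90 after knockdown, apart and higher (log2 fold change 0.39, SE 0.11, limma adjusted p = 0.377). Yellow-f, a dopachrome converting enzyme, lay at 0.48 with overlapping arrays, and the median over 18 tanning genes was -0.03. Of the hormone genes, rk, the receptor of the tanning hormone bursicon, lay at 0.31 and the ecdysis hormone gene ETH at 0.13. Both were dim, with mean levels of 4.75 and 3.47.

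In the list of cuticular lipids, 8 of 9 genes lay below 0, against 55.4% of all probe sets, with a median of -0.13. FASN2, a fatty acid synthase, was apart and lower (log2 fold change -0.77, SE 0.39), but WT array 1 stood at 6.27 and the other WT arrays at 4.26 to 4.62, against 4.13 to 4.21 after knockdown. Bond, an elongase of long fatty acids, lay at -0.22. The zona pellucida domain proteins of the apical matrix had a median of 0.04, with neo at 0.32 and dyl, which was dim (mean level 3.43), at -0.16. Of the regulators, grh, a transcription factor of the epidermal barrier, was apart and lower (10.21 to 10.39 in WT against 9.82 to 10.15, log2 fold change -0.26), and br, an ecdysone response gene, was apart and higher (6.30 to 6.54 against 6.60 to 7.06, log2 fold change 0.39).

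**Figure D5:**
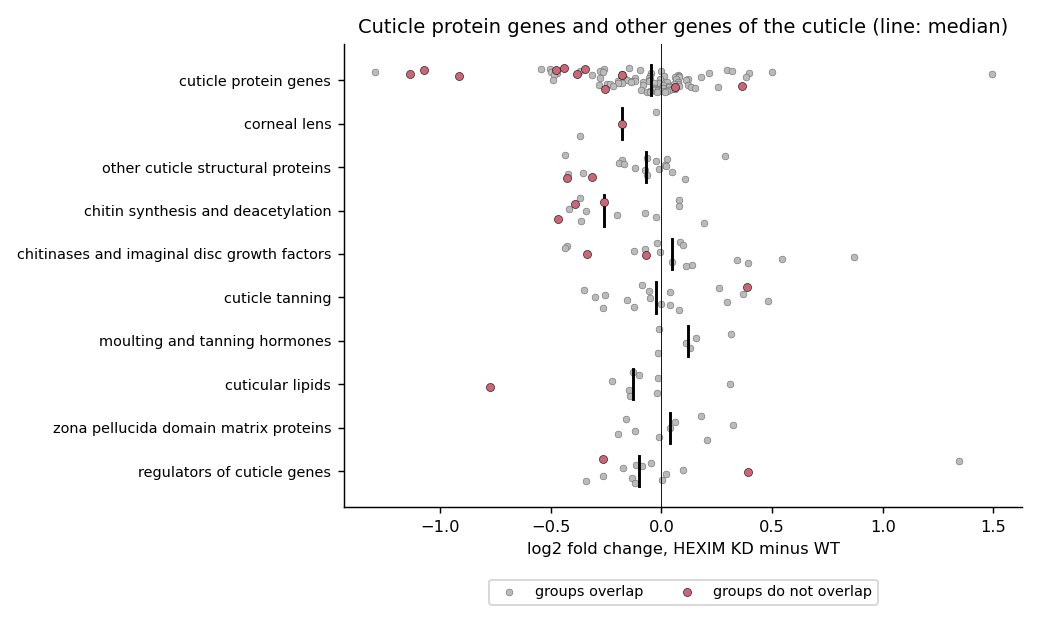
Log2 fold change, HEXIM knockdown minus WT, of each gene for the 98 cuticle protein genes and 9 lists of related genes, with red points where the 4 arrays of one genotype do not overlap the 4 of the other and a black line at the median of each row. Chitin synthesis and deacetylation has the lowest median of the lists, at -0.26, and the corneal lens row holds Cpr66D and Cpr72Ec, which are among the 98.

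Markers of other cells of the head were read beside these genes, and their part in the results was not tested. Of 47 markers, 1 passed the test, TpnC4, a troponin C of muscle (log2 fold change -1.24, SE 0.14, limma adjusted p = 0.0156), where 0.256% of all probe sets did. The groups were apart for 2 markers higher and 6 lower after knockdown, against 1.99% and 3.37% of all probe sets. The 5 measured markers of eye pigment cells had a median of -0.57, with 3 of 5 below 0 and apart (se, pr and bw). The other 2 lay above 0 with overlapping arrays, st at 0.39 (SE 0.17) and the dim cn at 0.06 (mean level 3.19). The mean level of the 5 ranged from 8.71 to 8.94 in WT and from 8.22 to 8.69 after knockdown, lowest in HEXIM knockdown array 1. All 8 fat body markers lay above 0 with a median of 0.92. Their mean level was 9.58 in WT array 3 and 10.92 to 11.28 in the other WT arrays, against 11.13 to 11.93 after knockdown. WT array 3 was the lowest WT array for Lsp2, apolpp, Yp1, Yp2, Yp3 and fit, and there it enters the fold change. For Fbp1 (8.48) and Fbp2 (9.78), which had the highest log2 fold changes of the list (1.17 and 1.05), it was the highest WT array. The 4 genes that mark female heads (Yp1, Yp2, Yp3 and fit) are also among these 8, so the 2 lists are not separate. The 4 stood at a mean of 9.21 in WT array 3 and at 11.77 to 12.22 in the other WT arrays, against 11.31 to 12.91 after knockdown. Of the 4 tracheal markers, 3 lay below 0, against 55.4% of all probe sets. These were serp, verm and Gasp, a chitin-binding protein of the airways, which are also in the cuticle lists above and are not separate from them. The remaining one, btl, lay at 0.03. Mean levels of the 4 were 9.64 to 9.83 in WT and 9.41 to 9.81 after knockdown. The 5 neuronal markers had a median of 0.00 and the 5 photoreceptor markers -0.11, and all 10 were above the median level of all probe sets, as for a sample of heads. The photoreceptor list named 12 genes, and those without a probe set under their single symbol included ninaE and the other rhodopsin genes. Mean levels of the remaining lists overlapped between genotypes for glia (10.39 to 10.60 and 10.20 to 10.47), muscle (9.76 to 10.23 and 9.34 to 9.85), antenna (8.65 to 8.90 and 8.39 to 9.28) and haemocytes (6.83 to 7.10 and 7.06 to 7.31). Single markers were apart within such lists. Lower were moody of glia (log2 fold change -0.60, limma adjusted p = 0.0730) and trpl of photoreceptors (-0.29). Higher were PPO2 of haemocytes (0.67, limma adjusted p = 0.136) and Fbp1 of the fat body (1.17).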

How the data were processed

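Heads of 4 WT and 4 HEXIM knockdown samples, described as biological replicates, gave the RNA for 8 Affymetrix Drosophila_2 arrays. The authors deposited log2 levels. For their normalization, RMA (in Affymetrix Expression Console) is named by the submitters' processing notes and GCRMA by the study's methods. They were used as deposited. The number of arrays limits the precision.

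Gene symbols came from the platform annotation, and chromosome arms and neighbours from RefSeq (all 98 genes matched). Genes with at most 3 others between them formed a cluster. Groups followed the genotype in the labels. The lmFit and eBayes functions of limma 3.58.1 (R 4.3.3) were fitted as HEXIM knockdown minus WT to 18769 probe sets, without 183 controls, with Benjamini-Hochberg adjustment and a threshold of 0.05. Single genes were also compared with an exact two-sided permutation test over 70 splits. The fit was tested on simulated data. Python 3.11.15, numpy 2.4.6, pandas 2.3.3 and matplotlib 3.10.9 made the tables and figures.

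Members and gene lists were chosen with earlier results of these data known. Named genes were those past the test or with groups apart, the 10 of highest WT level, the 5 highest and 5 lowest log2 fold changes, and the corneal lens genes (22 in all), and in each other list the 2 of lowest p. Not all genes so named in the marker lists are printed. Genes outside this rule that the text names, such as Cpr47Ef, the Ccp genes and mmy, were chosen after their values were seen. In all, 16 alternative settings were tried.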

Additional observations from a re-analysis of the deposited data

Results flagged for a closer look

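In 154 groups of 4 arrays (22 named cuticle genes, the other named genes and the list means, each in both genotypes), 12 had 1 array far from the other 3 by Dixon's criterion, where chance gives about 1 in 20, or 7.7. Among the cuticle genes, HEXIM knockdown array 1 stood at 5.06 for Cpr50Ca, against 5.77 to 5.89 in the other knockdown arrays. For Cpr62Bc, WT array 2 stood at 12.76, against 12.95 to 12.97 in the other WT arrays. For Cpr97Eb, WT array 4 stood at 11.88, against 11.97 to 11.99.

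Of the other genes of the cuticle, Cht11 stood at 6.69 in WT array 1 (6.47 to 6.49 in the others) and yellow-f at 6.19 in HEXIM knockdown array 1 (5.50 to 5.61). The mean level of the tanning list was 7.55 in WT array 3 (7.66 to 7.68). Among the markers, Arr1, an arrestin of photoreceptors, stood at 13.51 in HEXIM knockdown array 1 (13.27 to 13.31). The pigment gene se stood at 11.69 in WT array 4 (12.06 to 12.12), as did the mean of the eye pigment list at 8.71 (8.90 to 8.94). In WT array 3, the yolk protein genes Yp1 and Yp2 stood at 12.19 (13.31 to 13.37) and 9.49 (12.19 to 12.62), and the mean of the female head list, which holds both, at 9.21 (11.77 to 12.22).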

How the results depend on the processing

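No cuticle gene passed the test in any of 16 settings except array weights, with 7. The related lists had 0 genes past the test except with array weights, with 3. Probe sets past the test numbered 48, and 507 with array weights, 3 without the 3 arrays that stood apart, 1 with the replicate number as a block and 10 to 48 without 1 array. Cuticle genes with groups apart numbered 11, and 12 to 22 without 1 array (22 without HEXIM knockdown array 1), 29 without the 3 arrays and 8 to 12 otherwise. Of all probe sets, 5.35% were apart, 6.83% to 11.6% without 1 array (8.39% without HEXIM knockdown array 1) and 26.6% without the 3 arrays. The count of 8 came from the filter on dim probe sets, which kept 35 genes and where 7.89% of all probe sets were apart. These were the same 35 genes as in the split by mean level, so the filter is no separate support. Cpr62Ba, 1 of the 8, passed it only through its 4 WT arrays, where it was higher. The median log2 fold change of the cuticle genes was -0.05, -0.09 to -0.01 without 1 array, -0.26 with that filter and -0.07 to -0.04 otherwise. Same-numbered arrays of the genotypes correlated at -0.11, 0.57, -0.19 and -0.72 in their deviations, so the numbers were not read as pairs, and the block changed no call of a cuticle gene.

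Of 348 values of named cuticle genes under these settings, 0 reversed and 7 crossed the threshold, all with array weights: Cpr49Af at -1.31, Cpr62Ba at -0.98, Cpr62Bb at -0.41, Cpr62Bc at -0.41, Cpr92F at -1.23, Lcp65Ac at -1.55 and TwdlE at 1.76 (adjusted p 0.00299 to 0.0252 from limma). Leaving out arrays cannot reverse a gene with groups apart, so the count of 0 was partly fixed in advance. The cause of the differing counts was not tested. A different background correction and a block for scan date or slide were not run, because only processed values were used. At the dim signal of 63 of the 98 genes, a lower level may not be detectable.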
